A study of Mus musculus with 6 samples.

Results

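Receptor tyrosine kinases (RTKs) other than the ERBB family were described in MTC, a mouse gastric adenocarcinoma line, and in MTC-R, its paclitaxel (PTX)-resistant derivative. The genes were chosen as a list of 42 receptor genes by name, and all 42 were found among the 21959 genes of the count table. Both lines are labelled as knockouts of Trp53, the tumour suppressor p53, and Cdh1, the adhesion protein E-cadherin, and the labels call the lines MPC and MPC-PTX. MTC was grown without drug as the control, and MTC-R was raised from it by more than 30 cycles of PTX, a drug that stabilizes microtubules. Each line had 3 libraries. The knockout was induced by tamoxifen in gastric organoids of a C57BL/6J mouse carrying floxed alleles and Mist1-CreER, a Cre driven by a promoter of gastric chief and progenitor cells, and MTC was picked as a clone from a tumour these organoids formed under the skin. Each line went through selection of a clone, so that the clone and the resistance cannot be told apart. Whether the replicates came from separate cultures is not stated in the labels, so p-values measure the spread between these libraries, which may be technical.

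RTKs are membrane proteins that bind a growth factor outside the cell, pair up and phosphorylate tyrosines on each other and on adaptor proteins inside it. The adaptors pass the signal to the RAS-ERK and PI3K-AKT cascades, and phosphatases, ubiquitin ligases and Sprouty proteins switch it off again. In gastric epithelium MET and the FGF receptors are known as growth receptors and as amplified genes in gastric cancer, and the EPH receptors, which bind membrane-bound ephrins on neighbouring cells, are known for positioning epithelial cells.

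The libraries held 19349425 to 21047477 counts in MTC and 16574580 to 23148182 in MTC-R, and the 42 receptor genes took 0.136 to 0.146% of the counts of a library. MTC-R libraries differed from each other less than MTC libraries did, with a biological coefficient of variation of 3.01% against 17.9%. MTC replicate 1 stood apart in genes of the growth factor response. The MTC libraries also deviated from the line's mean with the GC content of genes. The Spearman correlation across genes between GC content and this deviation was 0.47, 0.35 and -0.58 in MTC replicates 1, 2 and 3. In MTC-R it was 0.27, -0.009 and -0.27. Deviations from the mean of a line's 3 libraries depend on each other. The counts of Cdh1 and Trp53 are no check of the knockout, since reads can come from exons outside the deleted part. Cdh1 was at 131 to 136 CPM (counts per 1e6 counts of the TMM-scaled library) and Trp53 at 3.25 to 6.59 CPM over the 6 libraries. Of 14 gastric epithelial markers, 8 passed the filter on low counts. All 8 fell in MTC-R at an adjusted p below 0.05, beside 15.6% of all tested genes. The summed level of the 14 was 8320 to 9520 CPM in MTC and 4811 to 4907 CPM in MTC-R, while Tff1, Tff2 and Gkn2 had no count in any library. Markers of other cells were low, with sums of 6.5 to 6.92 CPM in MTC and 3.80 to 5.47 CPM in MTC-R for 8 fibroblast genes, 6.58 to 9.03 and 6.63 to 7.49 CPM for 7 endothelial genes, 11.4 to 13.0 and 9.80 to 10.5 CPM for 8 leukocyte genes, and 0.722 to 1.44 and 0.726 to 0.891 CPM for 7 neural genes. The defining markers Cldn5 (endothelial), Snap25 and Sox10 (neural) were at 0 throughout, and the part of the epithelial fall in the receptor results was not tested.

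Of the 42 receptor genes, 25 passed the filter on low counts and entered the test, the quasi-likelihood test of edgeR with p-values adjusted by Benjamini-Hochberg over all 11795 tested genes. 11 of the 25 differed between the lines at an adjusted p below 0.05, which is 44.0% beside 29.7% of all tested genes. 3 receptor genes rose in MTC-R (Epha7, Tyro3 and Insr), 12% beside a background of 14.1%, and 8 fell (Axl, Mst1r, Fgfr1, Flt4, Epha1, Ephb2, Ephb3 and Ephb6), 32.0% beside a background of 15.6%. The study's methods call a gene on a change beyond 1 on the log2 scale together with an unadjusted p below 0.05. By this rule, applied to the edgeR fit, 1 receptor gene rose (Epha7), 4.0% beside a background of 3.77%, and 5 fell (Axl, Ephb2, Ephb6, Fgfr1 and Mst1r), 20% beside a background of 4.34%. The 3 libraries of a line lay wholly above or below those of the other line for 15 of the 25 (60.0%), where 46.9% of all tested genes did so. With each library left out in turn, 2 to 4 receptor genes rose and 8 to 10 fell. The median log2 fold change was -0.06 over the 25 receptor genes and 0.04 over all tested genes. In bulk RNA, fewer cells with a transcript and less transcript per cell cannot be told apart. The plot of levels by library shows the 25 genes.

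**Figure D1:**
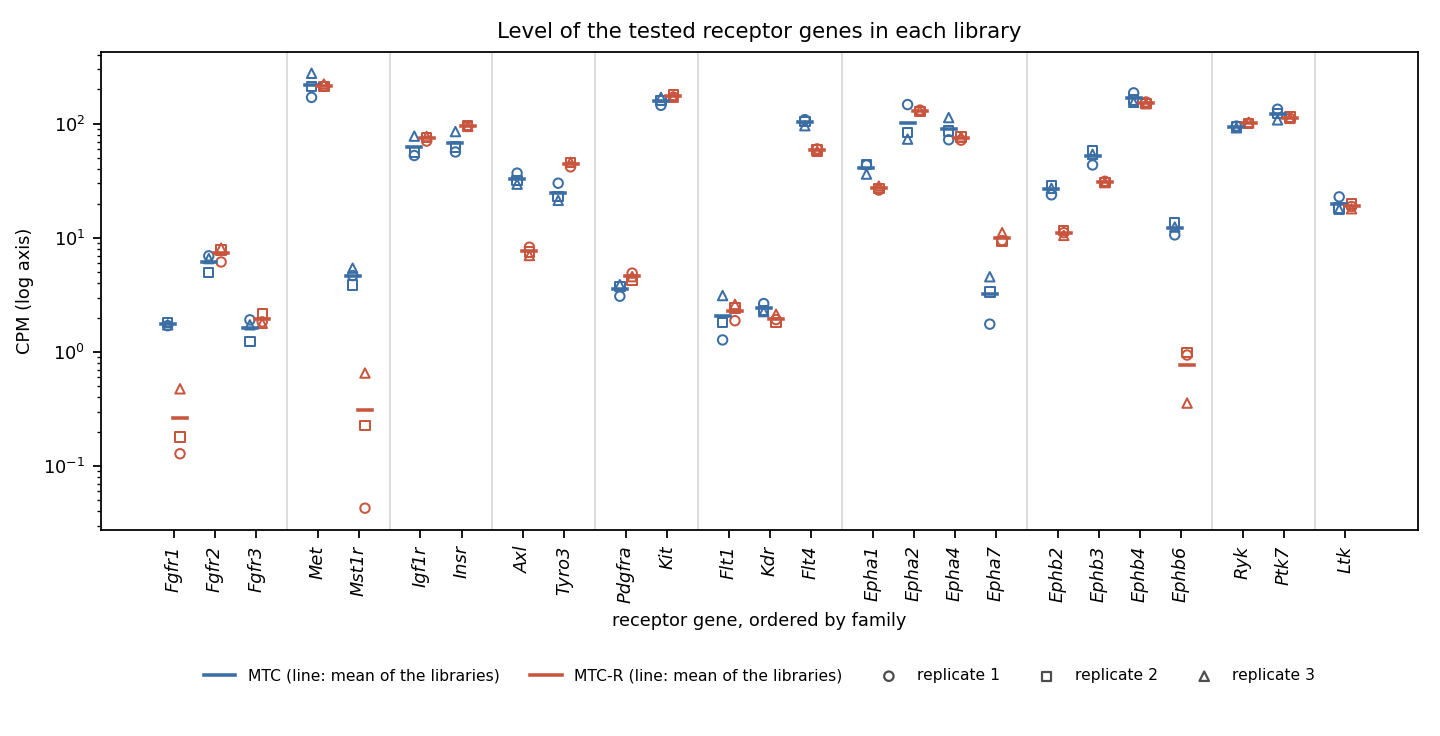
Level of each of the 25 tested receptor genes in CPM (vertical log axis), with MTC in blue and MTC-R in red, a marker shape for each replicate and a bar at the mean of the 3 libraries. Mst1r, Ephb6, Fgfr1 and Axl show the widest gaps below MTC, Epha7 and Tyro3 lie above it, and Epha2 shows MTC replicate 1 (147 CPM) near the MTC-R libraries (128 to 132 CPM).

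Levels were compared between genes as CPM per kb of exon, since longer transcripts give more reads. In MTC the order was Ephb4 at 36.2 ± 3.65 CPM per kb (SD, n = 3), Met at 28.7 ± 7.02, Ptk7 at 22.6 ± 2.42, Epha2 at 21.8 ± 8.55, Ryk at 20.8 ± 0.397 and Kit at 17.8 ± 1.41. Libraries of neighbours overlapped from Ephb4 down to Ryk, and Ryk lay above Kit without overlap. In MTC-R the same 6 genes led, with Ephb4 at 32.7 ± 0.671, Met at 28.1 ± 0.796, Epha2 at 27.8 ± 0.444, Ryk at 22.4 ± 0.327, Ptk7 at 20.9 ± 0.313 and Kit at 19.5 ± 0.449 CPM per kb, and of the neighbours among these 6 Met and Epha2 overlapped. None of these 6 genes passed the test. They made up 66.2 ± 1.59% of the summed level of the 42 receptor genes in MTC and 72.5 ± 0.420% in MTC-R (n = 3 each), and the sum itself was 223 ± 6.18 and 209 ± 0.865 CPM per kb. Below them the order differed between the lines, with Axl 11th of the genes in MTC and 15th in MTC-R, Tyro3 14th and 8th, Ephb6 16th and 22nd, and Mst1r 18th and 24th.

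**Figure D2:**
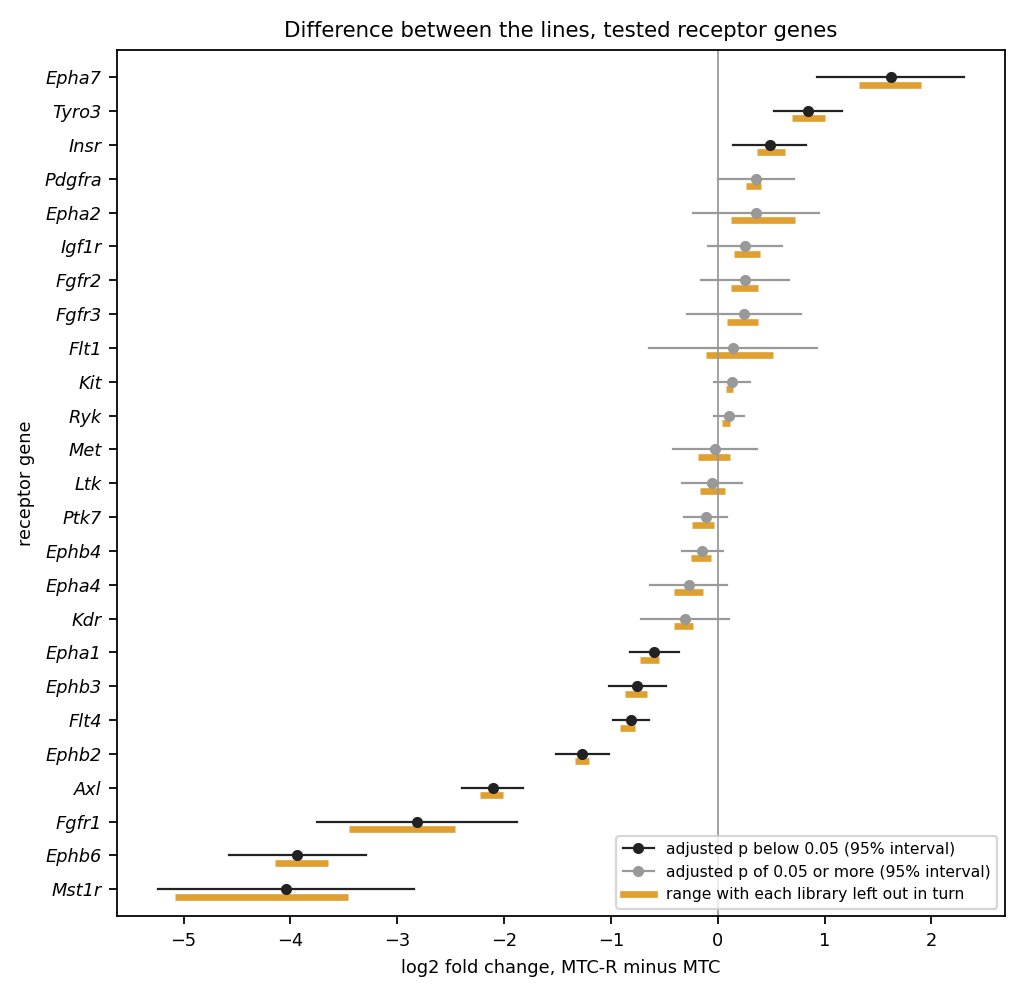
Log2 fold change of MTC-R minus MTC for the 25 tested receptor genes (dots), with the 95% interval (thin line) and the range of the value when each library was left out in turn (orange bar). The 11 genes with an adjusted p below 0.05 are dark, from Mst1r at -4.04 to Epha7 at 1.62, and the 14 others are grey.

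The TAM receptors AXL, TYRO3 and MERTK bind phosphatidylserine through the bridging protein GAS6, or also PROS1 for TYRO3 and MERTK. They clear dying cells or pass survival signals. In these cells Axl fell and Tyro3 rose, so that the order of the pair was turned round. Axl (ENSMUSG00000002602, chromosome 7, 25757273 to 25788705 in GRCm38) was at 37.0, 32.0 and 29.6 CPM in the MTC libraries and at 8.29, 7.53 and 7.01 CPM in the MTC-R libraries. Every MTC-R library was below every MTC library, by 4.32-fold on average, with a log2 fold change of -2.11 (SE 0.12, adjusted p = 4.28e-05). Tyro3 (ENSMUSG00000027298, chromosome 2, 119797733 to 119818104) was at 30.2, 23.0 and 21.3 CPM in MTC and at 41.9, 45.9 and 46.0 CPM in MTC-R. It rose 1.80-fold without overlap (log2 fold change 0.84, SE 0.14, adjusted p = 0.00394). Per kb of exon, the ratio of Tyro3 to Axl was 0.663, 0.585 and 0.585 in MTC, and in MTC-R it was 4.11, 4.95 and 5.33. The means were 0.611 ± 0.0449 and 4.80 ± 0.625 (SD, n = 3). Mertk stayed below the filter with 1 to 3 counts in MTC and 0 to 7 in MTC-R. Of the bridging ligands, Gas6 had 0 to 4 counts in a library, and Pros1 was at 0.372, 0.516 and 1.20 CPM in MTC and 0.854, 0.541 and 0.713 CPM in MTC-R (adjusted p = 0.995). The stretch before the RefSeq start of Axl is shown because Axl carried the most certain change by adjusted p among the receptor genes. It lies at chr7:25788734-25788983 on the minus strand (GRCm38.p6), reads 5′ to 3′ towards the gene, and has GC boxes (GGGCGG on either strand) in capitals.
Axl: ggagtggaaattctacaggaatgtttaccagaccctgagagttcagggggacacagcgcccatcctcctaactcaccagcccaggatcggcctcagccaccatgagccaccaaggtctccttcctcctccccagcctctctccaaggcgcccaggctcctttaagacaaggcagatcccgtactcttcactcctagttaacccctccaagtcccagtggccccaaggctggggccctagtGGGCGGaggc

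**Figure D3:**
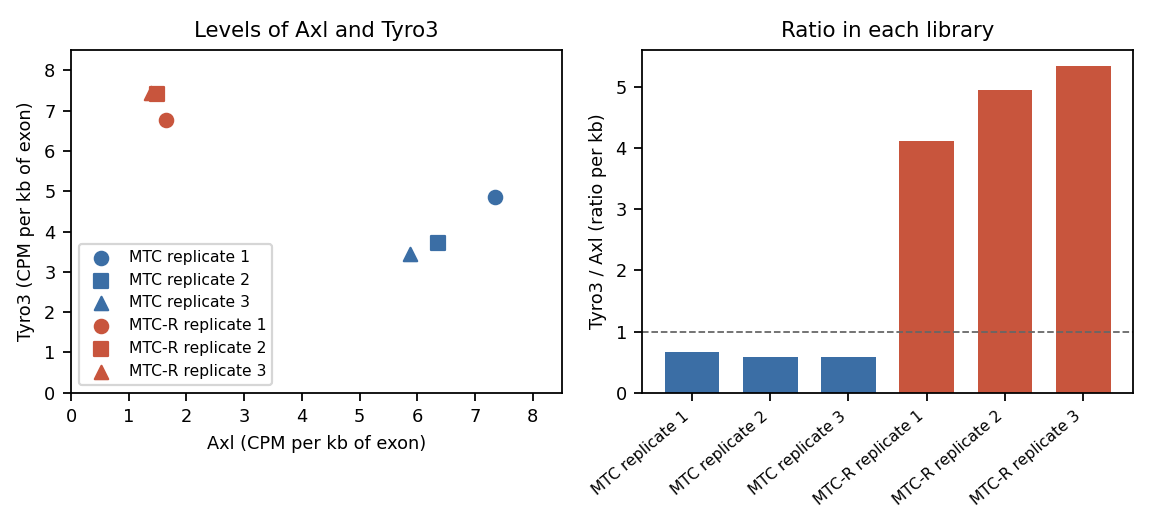
Axl and Tyro3 in CPM per kb of exon in each of the 6 libraries (left, both axes from 0) and the ratio of Tyro3 to Axl per library (right, bars from 0, dashed line at 1). The ratio was 0.585 to 0.663 in the MTC libraries (blue) and 4.11 to 5.33 in the MTC-R libraries (red).

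MET, the receptor of hepatocyte growth factor, and MST1R (RON), its relative that binds macrophage stimulating protein, are the pair of scatter factor receptors, and Mst1r fell while Met did not pass the test. Mst1r (ENSMUSG00000032584, chromosome 9, 107906873 to 107920383) was at 4.68, 3.87 and 5.43 CPM in MTC and at 0.0427, 0.225 and 0.654 CPM in MTC-R. It fell 15.2-fold without overlap (log2 fold change -4.04, SE 0.51, adjusted p = 0.00141), although the MTC-R values rest on 1, 5 and 11 counts and the log2 fold change was -5.08 without MTC-R replicate 3. Met was at 171, 213 and 278 CPM in MTC and at 213, 212 and 223 CPM in MTC-R. The lines overlapped, and the log2 fold change of -0.03 had a 95% interval of -0.42 to 0.36 (adjusted p = 0.913). The ligands were near absent, with 0 to 2 counts of Hgf and 1 to 3 of Mst1 in a library. Plxnb1, a plexin that associates with MET, fell (log2 fold change -0.37, adjusted p = 0.00374), and Cd44, a MET co-receptor, was at 351 to 398 CPM in MTC and 380.2 to 392 CPM in MTC-R (adjusted p = 0.765). The stretch before the first RefSeq start of Mst1r, chr9:107906639-107906872 on the plus strand, is shown up to the first base of a GENCODE exon, with GC boxes in capitals.
Mst1r: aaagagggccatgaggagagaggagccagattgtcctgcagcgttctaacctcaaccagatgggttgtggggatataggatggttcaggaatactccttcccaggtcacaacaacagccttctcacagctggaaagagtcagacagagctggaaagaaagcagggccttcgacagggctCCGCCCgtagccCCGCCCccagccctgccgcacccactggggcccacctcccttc

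The FGF receptors bind fibroblast growth factors together with heparan sulfate. Fgfr1 (ENSMUSG00000031565, chromosome 8, 25513654 to 25575718) was at 1.70, 1.80 and 1.73 CPM in MTC and at 0.128, 0.180 and 0.475 CPM in MTC-R, from 3, 4 and 8 counts. It fell 6.68-fold without overlap (log2 fold change -2.81, SE 0.40, adjusted p = 0.00228), and the log2 fold change was -3.45 without MTC-R replicate 3. Fgfr2, which was more abundant, was at 6.96, 4.95 and 6.58 CPM in MTC and at 6.15, 7.84 and 8.14 CPM in MTC-R, with overlap (log2 fold change 0.26, 95% interval -0.16 to 0.67, adjusted p = 0.319). Fgfr3 was at 1.24 to 1.91 CPM in MTC and 1.78 to 2.16 CPM in MTC-R (adjusted p = 0.448), and Fgfr4 had 1 count in all. Fgf1, a ligand of every FGF receptor, was at 66.1, 102 and 113 CPM in MTC and at 27.6, 29.5 and 30.8 CPM in MTC-R. It fell without overlap (log2 fold change -1.68, SE 0.20, adjusted p = 0.00130). Fgf13, an intracellular relative that does not act through the receptors, rose (log2 fold change 0.41, adjusted p = 0.0108). Il17rd (SEF), which holds back FGF signalling, fell (log2 fold change -1.50, adjusted p = 0.00193), and Fgfrl1, a receptor without a kinase, was at 13.5 to 14.7 CPM in MTC and 10.3 to 12.8 CPM in MTC-R (adjusted p = 0.0958).

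Of the EPH receptor genes 5 of the 8 tested were called, beside 29.7% of all tested genes. EPH receptors signal at cell contacts, with ephrin-A ligands for most A-type and ephrin-B ligands for most B-type receptors. Among the B-type receptors 3 of 4 fell. Ephb6 (ENSMUSG00000029869, chromosome 6, 41605482 to 41620509), whose kinase domain lacks activity, was at 10.6, 13.5 and 12.4 CPM in MTC and at 0.940, 0.992 and 0.356 CPM in MTC-R. It fell 16.0-fold without overlap (log2 fold change -3.93, SE 0.27, adjusted p = 0.000105), although the MTC-R values rest on 22, 22 and 6 counts. Ephb2 (ENSMUSG00000028664, chromosome 4, 136647539 to 136835988), known for keeping intestinal epithelial cells in the crypt, was at 23.9, 28.9 and 27.2 CPM in MTC and at 11.1, 11.6 and 10.5 CPM in MTC-R. It fell 2.41-fold without overlap (log2 fold change -1.27, SE 0.10, adjusted p = 0.000211). Ephb3, which shares that role with Ephb2, was at 43.6, 58.2 and 54.1 CPM in MTC and at 31.4, 30.5 and 30.5 CPM in MTC-R (log2 fold change -0.75, SE 0.11, adjusted p = 0.00299). Ephb4, the receptor of ephrin-B2 and the most abundant receptor gene per kb in both lines, was at 187, 162 and 154 CPM in MTC and at 155, 150 and 150 CPM in MTC-R, with overlap. Its log2 fold change was -0.14, with a 95% interval of -0.34 to 0.05 (adjusted p = 0.227). Ephb4 passed in 1 of 14 alternatives, at -0.25 without MTC replicate 3 (adjusted p = 0.00469). Without MTC replicate 1 the value was -0.06 (adjusted p = 0.429). Ephb1 had no count in any library.

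Among the A-type receptors Epha7 rose and Epha1 fell. Epha7 (ENSMUSG00000028289, chromosome 4, 28813131 to 28967499) was at 1.75, 3.35 and 4.56 CPM in MTC and at 9.48, 9.33 and 11.1 CPM in MTC-R. It rose 3.09-fold without overlap (log2 fold change 1.62, SE 0.29, adjusted p = 0.00674). Epha1 (ENSMUSG00000029859, chromosome 6, 42358487 to 42373268), an epithelial EPH receptor, was at 43.5, 43.8 and 36.3 CPM in MTC and at 26.3, 27.2 and 28.5 CPM in MTC-R, with no overlap (log2 fold change -0.59, SE 0.10, adjusted p = 0.00447). Epha4, which binds both classes of ephrin, was at 72.5, 86.5 and 113 CPM in MTC and at 71.9, 76.5 and 77.1 CPM in MTC-R, with overlap (log2 fold change -0.27, 95% interval -0.64 to 0.09, adjusted p = 0.228). Epha4 passed in 3 of 14 alternatives. Among these were the fits without MTC replicate 1 (-0.41, adjusted p = 0.0335) and with a correction for GC content and transcript length (-0.36, adjusted p = 0.00261). Without MTC replicate 3 the value was -0.14 (adjusted p = 0.207). Epha3 and Epha5 had no count in any library. Of 8 ephrin genes 3 fell and 0 rose by edgeR, beside 15.6% and 14.1% of all tested genes, and 0 rose by DESeq2 or at an unadjusted p below 0.05. Efna4 went from 31.8 to 35.7 CPM in MTC to 17.4 to 18.4 CPM in MTC-R (log2 fold change -0.91, adjusted p = 0.000346), Efna1 had a log2 fold change of -0.43 (adjusted p = 0.00949) and Efnb1 of -0.63 (adjusted p = 0.0262). Efnb2, the most abundant ephrin gene in CPM, was at 157 to 189.6 CPM in MTC and 184 to 185 CPM in MTC-R (adjusted p = 0.279). For these EPH receptors the stretches before the RefSeq start are shown to set genes that moved beside Ephb4, which did not pass the test. They lie at chr6:41605261-41605481 (plus strand, up to the first base of a GENCODE exon), chr4:136836013-136836262 (minus), chr4:28812881-28813130 (plus) and chr5:137349859-137350108 (plus) in GRCm38.p6, with GC boxes in capitals.
Ephb6: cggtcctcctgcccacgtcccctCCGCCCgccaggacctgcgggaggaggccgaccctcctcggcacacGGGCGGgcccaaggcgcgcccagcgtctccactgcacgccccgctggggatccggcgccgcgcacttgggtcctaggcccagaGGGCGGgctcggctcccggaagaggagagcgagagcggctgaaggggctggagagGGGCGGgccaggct
Ephb2: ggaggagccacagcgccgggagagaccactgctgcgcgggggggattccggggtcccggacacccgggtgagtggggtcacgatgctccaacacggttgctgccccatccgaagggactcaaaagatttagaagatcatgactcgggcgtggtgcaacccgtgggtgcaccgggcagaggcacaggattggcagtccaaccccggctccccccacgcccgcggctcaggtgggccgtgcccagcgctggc
Epha7: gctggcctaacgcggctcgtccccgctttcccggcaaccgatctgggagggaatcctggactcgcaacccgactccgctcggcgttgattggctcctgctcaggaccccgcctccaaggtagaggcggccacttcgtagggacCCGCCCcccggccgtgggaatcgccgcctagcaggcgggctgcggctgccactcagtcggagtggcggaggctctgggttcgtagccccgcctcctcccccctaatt
Ephb4: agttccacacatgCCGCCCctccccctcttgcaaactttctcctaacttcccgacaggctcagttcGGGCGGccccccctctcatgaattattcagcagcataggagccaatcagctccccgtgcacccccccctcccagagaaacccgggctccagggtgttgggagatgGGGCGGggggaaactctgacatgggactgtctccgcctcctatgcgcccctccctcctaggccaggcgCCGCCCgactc

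Epha2, an EPH receptor known to be induced by RAS-ERK signalling, split the MTC libraries. It was at 147, 84.3 and 73.5 CPM in MTC and at 132, 128 and 131 CPM in MTC-R, so that MTC replicate 1 lay above every MTC-R library and the other two MTC libraries below them. The log2 fold change was 0.36 (95% interval -0.23 to 0.94, adjusted p = 0.323). It was 0.12 (adjusted p = 0.701) without MTC replicate 3 and 0.72 (adjusted p = 0.000688) without MTC replicate 1. Immediate early and ERK response genes had the same high library. Egr1, an immediate early transcription factor, was at 373, 44.6 and 45.9 CPM in MTC and at 310.5 to 316 CPM in MTC-R. Ier2 was at 141, 60.2 and 56.8 CPM in MTC and 134 to 140.4 CPM in MTC-R, and Errfi1, a feedback inhibitor of ERBB receptors, at 273, 154 and 156 CPM in MTC and 267 to 272 CPM in MTC-R. Other response genes were lower in MTC-R than in MTC replicate 1. Dusp5 was at 79.5, 35.1 and 31.4 CPM in MTC and 33.3 to 36.8 CPM in MTC-R, and Fos, Dusp6, Ier3 and Junb also lay below MTC replicate 1. MTC replicate 1 was the highest MTC library for 21 of 27 tested ERK output genes (77.8%), for 11 of the 25 receptor genes (44.0%) and for 40.4% of all tested genes. The cause of the difference between the MTC libraries was not tested.

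**Figure D4:**
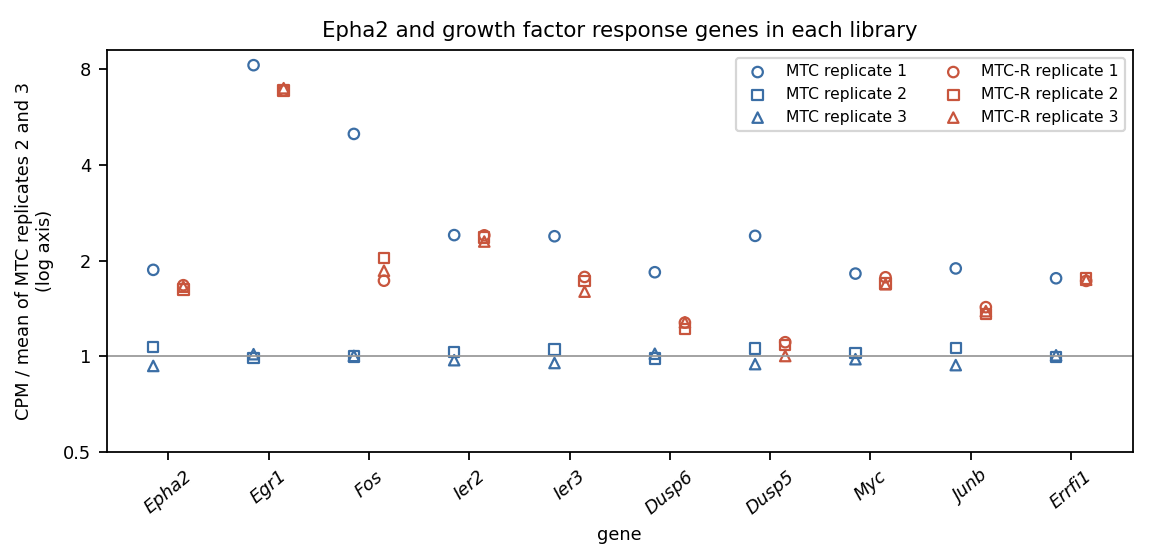
CPM of Epha2 and of 9 growth factor response genes in each library, divided by the mean of MTC replicates 2 and 3 (vertical log axis, line at 1). MTC replicate 1 (blue circles) lies 1.76 to 8.25 times above that mean in these genes. The MTC-R libraries (red) lie near MTC replicate 1 for Egr1, Ier2, Myc, Errfi1 and Epha2 but below it for Fos, Dusp5, Dusp6, Ier3 and Junb.

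The insulin receptor and the IGF1 receptor steer growth and metabolism through IRS adaptors. Insr (ENSMUSG00000005534, chromosome 8, 3122061 to 3279617) was at 56.6, 62.8 and 85.5 CPM in MTC and at 95, 97.2 and 94.9 CPM in MTC-R. It rose 1.40-fold without overlap (log2 fold change 0.49, SE 0.15, adjusted p = 0.0430), and this call was lost in 5 of the 6 fits that left out a library, with an adjusted p of up to 0.153. Igf1r was at 52.8, 56.6 and 78.0 CPM in MTC and at 70.6, 75.7 and 77.6 CPM in MTC-R, with overlap (log2 fold change 0.26, 95% interval -0.09 to 0.60, adjusted p = 0.232). MTC replicate 3 was the MTC library nearest to MTC-R for both receptors, and without it Igf1r had a log2 fold change of 0.40 (adjusted p = 0.00124). This was the 1 of 14 alternatives in which Igf1r passed. Without MTC replicate 1 its log2 fold change was 0.15 (adjusted p = 0.454). With a correction for GC content and transcript length, Igf1r was at 0.07 (adjusted p = 0.327) and Insr at 0.31 (adjusted p = 0.00168). Irs2, an adaptor of both receptors, was at 75.1, 69.9 and 68.3 CPM in MTC and at 135, 129 and 127 CPM in MTC-R. It rose without overlap (log2 fold change 0.87, SE 0.07, adjusted p = 0.000159), and Irs1 rose as well (0.64, adjusted p = 0.0207). Igf1 had 2 to 3 counts in the MTC libraries and none in MTC-R, and Igf2 and Ins2 had no count. With MTC-R set to a floor of 3 counts over the line and the MTC counts taken as exact, Igf1 was 2.40-fold lower. Grb10, an adaptor that dampens insulin receptor signalling, had 3, 2 and 11 counts in MTC and none in MTC-R. On the same terms Grb10 was 5.49-fold lower, with most of its counts from MTC replicate 3.

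The VEGF receptors are best known from endothelium. Flt4 (VEGFR3; ENSMUSG00000020357, chromosome 11, 49609263 to 49652739), which binds VEGFC and VEGFD, was at 109, 105 and 96.3 CPM in MTC and at 60.3, 59.0 and 57.4 CPM in MTC-R. It fell 1.76-fold without overlap (log2 fold change -0.81, SE 0.07, adjusted p = 0.000286). Kdr (VEGFR2) was at 2.26 to 2.66 CPM in MTC and 1.80 to 2.14 CPM in MTC-R (adjusted p = 0.236), and Flt1 (VEGFR1) at 1.28 to 3.12 and 1.88 to 2.61 CPM (adjusted p = 0.780). Their ligands moved both ways. Vegfa, the main ligand of KDR, was at 91.4, 55.6 and 64.2 CPM in MTC and at 142, 146 and 136 CPM in MTC-R. It rose without overlap (log2 fold change 1.01, SE 0.18, adjusted p = 0.00652). Pgf, a ligand of FLT1, was at 12.6, 7.63 and 6.63 CPM in MTC and at 1.45, 2.03 and 1.72 CPM in MTC-R (log2 fold change -2.37, SE 0.29, adjusted p = 0.00122). Vegfc, a ligand of FLT4, was at 0.670 to 1.38 CPM in MTC and 1.92 to 2.79 CPM in MTC-R (log2 fold change 1.00, adjusted p = 0.0448), and Vegfb had a log2 fold change of 0.34 (adjusted p = 0.0223). Nrp2, a co-receptor of VEGFC and semaphorins, rose from 159 to 177 CPM in MTC to 264 to 275 CPM in MTC-R (log2 fold change 0.71, adjusted p = 0.000321). Nrp1 was at 81.3 to 116 CPM in MTC and 86.8 to 93.4 CPM in MTC-R (adjusted p = 0.753). The summed level of the 7 endothelial markers was at 6.58 to 9.03 CPM in MTC and 6.63 to 7.49 CPM in MTC-R, beside 96.3 to 109 CPM of Flt4 in MTC. Which cells the Flt4 reads came from was not tested.

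Of the PDGF, KIT and CSF1 receptors, Kit, the receptor of stem cell factor, was at 145, 159 and 170.4 CPM in MTC and at 172, 178 and 171 CPM in MTC-R, with a log2 fold change of 0.13 (95% interval -0.04 to 0.30, adjusted p = 0.213). Its ligand Kitl was at 19.5, 22.2 and 52.8 CPM in MTC and at 19.1 to 22.9 CPM in MTC-R (adjusted p = 0.289), with MTC replicate 3 above all other libraries. Pdgfra was at 3.08 to 3.89 CPM in MTC and 4.28 to 4.91 CPM in MTC-R, without overlap and without passing the test (log2 fold change 0.36, adjusted p = 0.121). Pdgfrb, the PDGF receptor of fibroblasts and pericytes, had 1 to 4 counts in MTC and 0 to 3 in MTC-R, and Csf1r, the macrophage receptor, had 0 to 3 counts in each line. Of the PDGF ligands, Pdgfa (log2 fold change -0.44, adjusted p = 0.00460) and Pdgfb (-0.41, adjusted p = 0.0143) fell, and Pdgfc rose (0.44, adjusted p = 0.0125).

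Of the receptors that bind WNT ligands or lack kinase activity, and of the ALK group, none passed the test. Ryk, a WNT receptor with an inactive kinase, was at 95.6, 95.2 and 92.3 CPM in MTC and at 101, 100.2 and 103 CPM in MTC-R, with a log2 fold change of 0.10 (95% interval -0.03 to 0.24, adjusted p = 0.224). Ptk7, a planar polarity receptor with an inactive kinase, was at 134, 123 and 108 CPM in MTC and at 112, 115 and 112 CPM in MTC-R (log2 fold change -0.11, 95% interval -0.31 to 0.09, adjusted p = 0.364). Ptk7 passed in 1 of 14 alternatives, at -0.24 without MTC replicate 3 (adjusted p = 0.00334). Without MTC replicate 1 the value was -0.04 (adjusted p = 0.713). Ltk, the leukocyte tyrosine kinase, was at 22.9, 18.3 and 17.8 CPM in MTC and at 18.8, 19.8 and 18 CPM in MTC-R (log2 fold change -0.06, 95% interval -0.34 to 0.22, adjusted p = 0.754). These intervals exclude a change of 2-fold in either direction. Ror1 had no count and Ror2 had 1 count in all, while Wnt5a, a ligand of ROR2 and RYK, had 0 to 2 counts in a library.

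The 17 receptor genes below the filter had few or no counts. 7 had none in any library (Epha3, Epha5, Ephb1, Ntrk2, Ntrk3, Ror1 and Musk), which allows up to 0.0247 CPM each over both lines at a floor of 3 counts. Fgfr4, Ret, Alk and Ror2 had 1 count each over all 6 libraries. Ros1 had 2, 2 and 4 counts in MTC and none in MTC-R. With MTC-R set to a floor of 3 counts over the line and the MTC counts taken as exact, Ros1 was 2.75-fold lower. Nell2, known as a ligand of ROS1, was at 1.70, 1.39 and 0.961 CPM in MTC and had 1 count over the 3 MTC-R libraries, with an adjusted p of 0.000892. The endothelial receptors Tie1 and Tek had 1 to 3 and 0 to 3 counts in a library. The neurotrophin receptors had no count, and their ligand Bdnf was at 8.71 to 14.0 CPM in MTC and 7.13 to 9.09 CPM in MTC-R (adjusted p = 0.0993). Ligands and a co-receptor of RET rose, with Ret itself near 0. Gfra1, the GDNF-binding co-receptor of RET, was at 0.319, 0.206 and 0.240 CPM in MTC and at 1.71, 2.39 and 2.67 CPM in MTC-R (log2 fold change 3.11, SE 0.33, adjusted p = 0.000598). Gdnf rose from 0.464 to 0.744 CPM in MTC to 1.89 to 2.20 CPM in MTC-R (log2 fold change 1.72, adjusted p = 0.00232), Artn rose as well (0.83, adjusted p = 0.0123), and Ret itself had 1 count over all 6 libraries.

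Genes that act with the receptors were taken from lists. Of 65 ligand genes 33 were tested, and 8 rose and 9 fell (51.5% called, beside 29.7% of all tested genes), with a median log2 fold change of 0.13. Those with a log2 fold change beyond 1 and at least 2 CPM were Pgf and Fgf1, which fell, and Vegfa, Vegfc and Gdnf, which rose. The count of ligand genes that rose was 4 without MTC replicate 2, 3 without MTC-R replicate 1 and 2 without MTC-R replicate 2. Of 24 co-receptor genes 15 were tested, and 4 rose and 5 fell (60.0% called, median 0.00). The syndecans, heparan sulfate carriers that present FGFs and other ligands, moved apart. Sdc2 rose from 5.57 to 5.91 CPM in MTC to 16.5 to 19.6 CPM in MTC-R (log2 fold change 1.67, SE 0.11, adjusted p = 8.31e-05). Sdc3 fell from 18.1 to 19.9 CPM to 6.42 to 7.89 CPM (-1.47, adjusted p = 0.000183), and Sdc1 and Sdc4, the most abundant of them in CPM, fell by 0.51 and 0.33 on the log2 scale (adjusted p = 0.00347 and 0.00839). The glypican genes also moved apart, with Gpc4 at -1.10 (adjusted p = 0.000359) and Gpc1 at 0.52 (adjusted p = 0.0103).

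Of 52 adaptors and effectors 46 were tested, and 7 rose and 3 fell (median 0.08). The share called was 21.7%, beside 29.7% of all tested genes. Dok2, a docking protein that damps RAS signalling, was at 51.2, 49.1 and 45.5 CPM in MTC and at 6.19, 8.70 and 6.65 CPM in MTC-R (log2 fold change -2.76, SE 0.14, adjusted p = 2.97e-05). Sh2b2, an adaptor of the insulin receptor and KIT, rose from 4.32 to 8.08 CPM to 11.8 to 12.4 CPM (1.07, adjusted p = 0.0113). Grb7, an adaptor of several receptors, fell (-0.76, adjusted p = 0.000705), and so did Akt1, a kinase downstream of PI3K (-0.39, adjusted p = 0.0129). The count that rose was 1 without MTC replicate 2, 14 without MTC replicate 3 and 2 without each MTC-R library in turn, and the count that fell was 5 without MTC replicate 1, 9 without MTC replicate 3 and 6 with the correction for GC content and length. Of 36 negative regulators, 34 were tested, and 6 rose and 5 fell (median -0.02). The share called was 32.4%, beside the same 29.7%. Il17rd and Lrig3 passed a log2 fold change of 1. Lrig3, a membrane protein of a family that lowers receptor levels, was at 21.3, 23.0 and 23.0 CPM in MTC and at 8.46, 9.15 and 7.90 CPM in MTC-R (-1.40, SE 0.10, adjusted p = 0.000112). Socs2 rose (0.81, adjusted p = 0.00244), and Ptprk, a receptor phosphatase, fell (-0.59, adjusted p = 0.00433). The count of negative regulators that rose was 10 without MTC replicate 1, 1 without MTC replicate 2, 11 without MTC replicate 3 and 2 without each MTC-R library in turn, and the count that fell was 3 without MTC replicate 2 or any MTC-R library.

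Of 28 genes known as output of ERK signalling 27 were tested, and 8 rose and 0 fell (median 0.27). The share called was 29.6%, beside 29.7% of all tested genes, of which 14.1% rose and 15.6% fell. The count of genes that fell was 0 by edgeR and by DESeq2, and 0 at an unadjusted p below 0.05. The list shares Dusp4, Dusp5, Dusp6, Spry1, Spry2, Spry4, Spred1 and Spred2 with the negative regulators. The ETV factors of the PEA3 group, which FGF and ERK signalling induce, rose together. Etv1 was at 1.06, 1.80 and 2.40 CPM in MTC and at 5.21, 5.73 and 4.81 CPM in MTC-R (log2 fold change 1.57, SE 0.26, adjusted p = 0.00463). Etv5 (0.89, adjusted p = 0.00347) and Etv4 (0.56, adjusted p = 0.0420) rose as well, with Fosl2, Kcnn4, Emp1, Spred1 and Spred2. The count depends on MTC replicate 1, which was the high library for this list. Without it 19 genes rose, without MTC replicate 2 5 did, and 4 rose without each of the MTC-R libraries in turn. Of 12 other RTK genes not among the 42, 5 were tested. Flt3, a receptor of blood progenitors, was at 0.744, 0.980 and 0.529 CPM in MTC and at 5.25, 5.55 and 4.63 CPM in MTC-R (log2 fold change 2.78, SE 0.23, adjusted p = 0.000216), and Styk1 fell (-0.70, adjusted p = 0.00409).

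**Figure D5:**
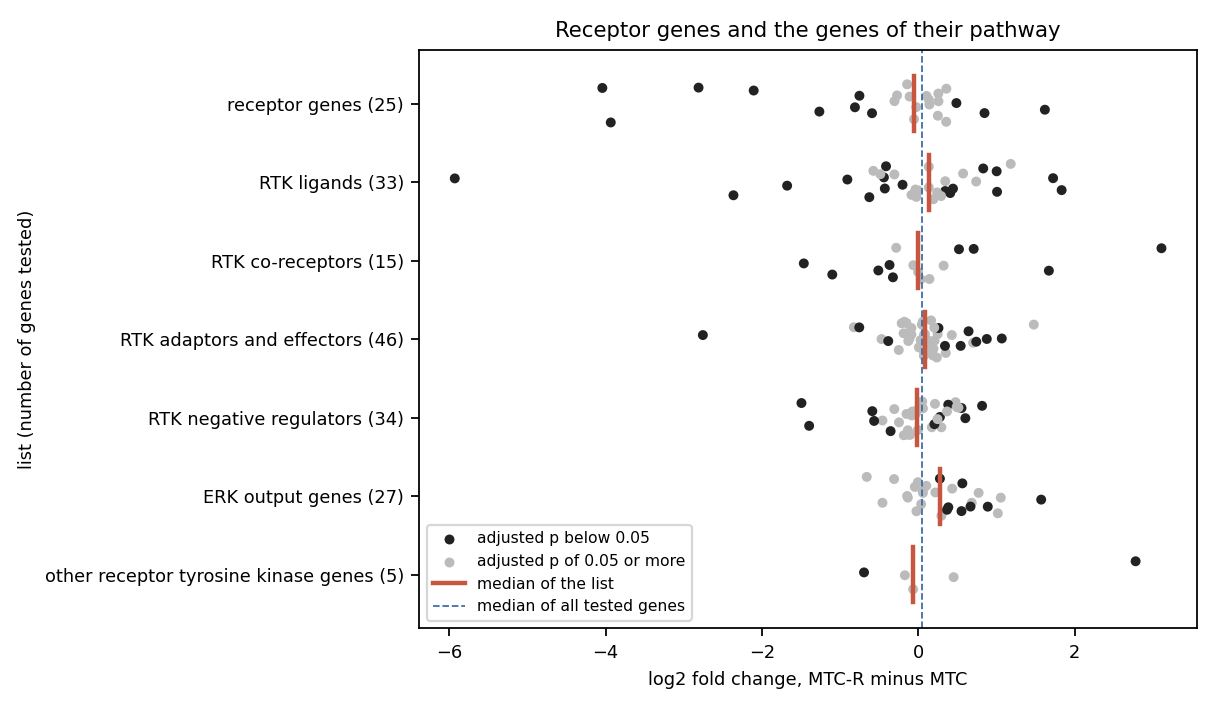
Log2 fold change of MTC-R minus MTC (horizontal axis) for the tested genes of the receptor list and of 6 lists of ligands, co-receptors, adaptors, negative regulators, ERK output genes and other RTKs, 1 dot a gene, dark where the adjusted p was below 0.05. Red bars mark the median of a list and the dashed line the median of all tested genes (0.04), and the vertical place of a dot within its row carries no value.

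Some receptor genes lie near each other on a chromosome. Tyro3 rose, whereas Ltk, 37.3 kb away on chromosome 2, did not pass. Ephb6 and Epha1, 738 kb apart on chromosome 6, both fell. The tested genes within 1 Mb of Ephb6 were 4 and of Epha1 6, with 0 positive log2 fold changes among them and medians of -0.40 and -0.44. These windows share genes, including each other's receptor gene. Of 19 tested genes within 1 Mb of Fgfr1 18 had positive log2 fold changes (median of the 19, 0.48), and 14 rose by the test, while Fgfr1 itself fell. For Insr, on the same chromosome, 16 of 20 neighbours were positive (median 0.24) and 7 rose. For Axl 13 of 26 neighbours were positive (median 0.00). Around Mst1r, which fell, 38 of 48 neighbours were negative (median -0.14), with 2 higher and 13 lower by the test. Around Ephb3, which fell, 16 of 20 were negative (median -0.15), with 0 higher and 4 lower. Around Ephb2, which fell, 19 of 26 were positive (median 0.24), with 5 higher and 3 lower. Flt4 fell as well, and 13 of its 22 neighbours were positive (median 0.06), with 0 higher and 5 lower. Tyro3 rose, and 27 of its 41 neighbours were positive (median 0.06), with 2 higher and 3 lower. Epha7 had 0 tested neighbours. Of all tested genes 14.1% rose and 15.6% fell, with a median of 0.04, and the share with a positive value is not given. Windows of uncalled receptor genes are not listed. These counts describe the regions and were not tested.

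Stretches of 250 bases before a RefSeq start were found for 36 of the 42 receptor genes, as 40 entries. The GC box, GGGCGG or its reverse complement CCGCCC, was in 29 of the 40 (72.5%), beside 32.7% of all 32851 entries of the same length. The median number of CpG pairs in the stretch was 16 for the receptor genes and 6 for all entries. CCAAT on either strand was in 8 (20%, beside 33.8% of all), TATAAA in 2 (5.0%, beside 12.4%), the AP-1 letters TGANTCA in 2 (5.0%, beside 6.75%) and CACGTG in 1 (2.5%, beside 6.02%). Among genes that fell, Axl had 5 CpG pairs and 1 GC box and Ephb6 had 27 and 5 in 250 bases, and Epha7, which rose, had 25 and 1. Ephb2, which fell, had 20 CpG pairs and no GC box. A match of letters is a description of the stretch and not a bound site.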

How the data were processed

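Poly-A selected RNA of the 3 MTC and 3 MTC-R libraries was sequenced. The authors filtered the reads with fastp (version 0.22.0 in the submitters' processing notes), mapped them with HISAT2 and deposited raw read counts per gene, not normalized and not pooled. The genome release, annotation, counter and use of strand are not given in the sources used here, so reads of a gene and an antisense or overlapping partner cannot be told apart.

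From the deposited counts (16574580 to 23148182 a library), library sizes were scaled by TMM and low genes were removed with edgeR's filterByExpr (by line, minimum count 10). 11795 genes were tested with edgeR 4.0.16 (glmQLFit, robust, and glmQLFTest, R 4.3.3), with Benjamini-Hochberg adjustment. The standard error is the log2 fold change divided by the square root of F. Intervals of log2 fold changes are 95% intervals, and a count of 0 was taken to allow 3 counts, which covers counting error only. Folds against this floor take the counts of the other line as exact and are not lower bounds. GENCODE M21 (GRCm38) gave positions, exon lengths and GC content for genes with the same Ensembl identifier (21851 of 21959 genes), and promoter stretches from RefSeq (GRCm38.p6). On simulated counts of this comparison (11689 genes run), edgeR found 88.7% of changed genes at a simulated log2 fold change of 1 and 99.0% at 2, and 8.96% of its calls were false. The simulation gave a gene the same dispersion in both lines, whereas the coefficient of variation was 17.9% in MTC and 3.01% in MTC-R. It also changed few genes, where 29.7% of the tested genes were called in the real data. These rates may therefore not hold for the real comparison.

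All 42 receptor genes were accounted for. Of the other lists, genes past an adjusted p of 0.05 and a log2 fold change of 1 with at least 2 CPM were named. Ligands and co-receptors of a described receptor were named in part, whatever they did, and some called ligands were left out. The remaining genes named from the lists of adaptors, negative regulators and ERK output were chosen after their values were seen. The members and lists were chosen with earlier results of these data known. Alternatives were DESeq2 1.42.0, DESeq2's size factors or library size alone, no filter, the replicate number as a block, at least 10 counts in every sample, a loess correction for GC content and transcript length (span 0.3), glmTreat, and each library left out in turn.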

Additional observations from a re-analysis of the deposited data

How the results depend on the processing

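10 of the 11 receptor genes called kept their call and direction under every alternative that was fitted gene by gene and in which they were tested. The test against a minimum fold (glmTreat) was run only for the counts by the rule of the methods, where it gave 1 receptor gene higher and 5 lower. The exception was Insr, which lost its call in 5 of the 6 fits that left out a library (adjusted p of 0.0693 to 0.153). With at least 10 counts in every sample, 5 receptor genes fell, and 2 fell by the rule of the methods, since Fgfr1, Mst1r and Ephb6 left the test. With each library left out in turn, 1 to 2 receptor genes rose by the rule of the methods. Uncalled receptor genes changed sign in 7 cases. Met was at 0.0093 with library size alone and 0.0002 with the replicate block, and ranged from -0.18 to 0.12 with a library left out, with its positive value without MTC replicate 3. Flt1 ranged from -0.11 to 0.51, negative without MTC replicate 1, and Ltk from -0.17 to 0.067, positive without MTC replicate 1. Ltk was at 0.0054 with the correction for GC content and length and 0.0065 with that correction and the block. Epha2 passed at 0.47 (adjusted p = 0.0251) with the correction and the block.

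Over all genes, the correction for GC content and length gave 2585 genes higher, and 2590 with the replicate block as well, against 1668. Leaving out a library gave 803 to 3020 genes higher and 1077 to 3227 lower, both highest without MTC replicate 3. The same fits gave 2 to 10 ligands higher, 1 to 14 adaptors higher and 2 to 9 lower, 1 to 11 negative regulators higher and 3 to 6 lower, 4 to 19 ERK output genes higher and 0 to 1 lower, and 1 to 2 other RTK genes lower. With the correction 6 adaptors fell, and with the correction and the block 8 adaptors and 8 negative regulators fell. Deviations of samples with the same replicate number correlated at 0.15, -0.02 and 0.17, and those of samples with different numbers at -0.23 to 0.15. These values do not settle whether the numbers pair the samples. With the replicate block 3 receptor genes rose and 8 fell, 1787 of all genes rose and 1717 fell, and no call of a receptor gene changed.

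Few counts limit Fgfr1, Mst1r and Ephb6, whose MTC-R values rest on 3 to 8, 1 to 11 and 6 to 22 counts. The same holds for the 17 receptor genes below the filter.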
